A study of Mus musculus with 24 samples.

Results

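Cytosolic ribosomal protein genes code for the proteins of the small (40S) and large (60S) ribosomal subunits, which the translating ribosome of every cell is built from. They were chosen by name alone: symbols that start with Rpl or Rps followed by a number, with an optional a, x, l or digit after it, together with Rpsa, Rplp0, Rplp1 and Rplp2, without the S6 kinases and without names that hold "-ps". The rule found 87 names in each of 2 deposited tables. A mean of 100 or more normalized counts over the columns of a table was then required, which kept the same 85 genes of the 23095 listed in the first table and of the 25476 listed in the second. Of these, 35 belong to the small subunit and 50 to the large one. Rpl3l and Rps12l1 fell below the mean of 100. Rpl6l, with a mean of 143 in the first table and 142 in the second, lay nearest above it, and Rpl3l, with 26.8 and 21.3, nearest below. Rpl24 is not analysed here, and Rpl36al, Rpl37rt, Rps27rt and Fau lie outside the rule.

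A ribosome needs its proteins in matched amounts, and their mRNAs, which are among the most abundant of any growing cell, are made, stored and translated as a group. Most of these mRNAs start with a run of pyrimidines, the 5′ terminal oligopyrimidine (TOP) tract, through which mTOR signalling and the RNA-binding protein Larp1 set how well they are translated. Some members have close paralogs that are used in particular tissues, and nearly all have processed pseudogenes, which are mRNA copies inserted elsewhere in the genome.

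The study compared mouse embryonic stem cells (ESCs) with 2 kinds of extended or expanded potential stem cells (EPSCs), and 24 poly(A) RNA libraries were analysed, with 2 replicates in each of 12 groups. The first table holds wild-type J1 ESCs, kept in serum medium with LIF and the 2i inhibitors CHIR99021 and PD0325901, and the lines converted from them: D-EPSCs, in N2B27 medium with serum replacement, LIF, CHIR99021, dimethindene maleate and minocycline hydrochloride, and L-EPSCs, in medium with a higher percentage of serum replacement, LIF, CHIR99021, PD0325901, A-419259, XAV939, JNK inhibitor VIII and SB203580. The second table holds ESCs, untreated L-EPSCs and doxycycline (Dox)-treated L-EPSCs of 3 tet-off lines, ZHBTc4 (Oct4-cKO), 2TS22C (Sox2-cKO) and NgcKO (Nanog-cKO). In each of them the endogenous gene named is deleted, in ESCs and L-EPSCs alike, and a transgene that Dox shuts off keeps the cells going. Every tet-off line is a single line, so a difference between lines is one between 3 genetic backgrounds as well as 3 factors, and how long Dox was given before these libraries is not given in the sources used here.

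Reads on genes ranged from 11612919 to 15069899 per J1 library and from 10807631 to 14798984 per tet-off library. Dox lowered the RNA of the factor it targets in each line. Pou5f1 (Oct4) went from 6420 and 6316 to 162 and 184 normalized counts. Sox2 went from 4966 and 4701 to 47.0 and 53.1, and Nanog from 9119 and 8847 to 3166 and 3112. All 8 pluripotency markers that were examined were present in every group, with summed levels that stayed between 30814 and 84139 apart from Oct4-cKO and Sox2-cKO L-EPSCs on Dox, where they lay between 5032 and 9361. Fibroblast markers, 8 of 8 detected, summed to 89456 and 91571 in J1 ESCs, 55394 and 55608 in D-EPSCs and 18419 and 19033 in L-EPSCs, and macrophage markers, 6 of 6 detected, to 2444 and 2451, 19534 and 19682 and 15439.6 and 15503. In the tet-off libraries, with 7 fibroblast markers listed, those sums were at most 453 and 758. The largest were mostly Thy1 (mean 354 in Oct4-cKO ESCs) and Cd68 (mean 735 in Nanog-cKO ESCs). Lum or Twist2 for fibroblasts was at 0 in all tet-off groups, as was Tyrobp or Lyz2 for macrophages in 8 of 9. The methods give feeder cells or gelatin as the surface for J1 ESCs and several passages without feeders for EPSCs ahead of sequencing. Labels were used as given, and nothing in them says that the replicates are separate derivations, so the p-values measure the spread between these libraries.

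The start of the transcript is the feature that ribosomal protein mRNAs are known for, so the annotated start sites of members that carry a TOP-like tract are shown first, beside those of 4 paralogs. Each line gives 30 bases from RefSeq (GRCm38.p6), 10 before the annotated start and 20 from it on, and capitals mark the run of C and T that holds the annotated start or lies nearest to it.
Rps27: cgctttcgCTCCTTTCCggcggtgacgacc
Rps6: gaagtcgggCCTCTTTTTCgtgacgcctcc
Rps10: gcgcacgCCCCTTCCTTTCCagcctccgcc
Rps15a: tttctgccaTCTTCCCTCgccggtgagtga
Rpl28: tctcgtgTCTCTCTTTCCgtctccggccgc
Rpl38: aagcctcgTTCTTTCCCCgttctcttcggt
Rpl15: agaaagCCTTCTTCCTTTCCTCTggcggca
Rplp2: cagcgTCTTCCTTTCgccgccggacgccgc
Rpl39l: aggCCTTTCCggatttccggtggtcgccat
Rpl22l1: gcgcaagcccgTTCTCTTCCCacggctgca
Rpl10l: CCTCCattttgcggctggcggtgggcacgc
Rpl7l1: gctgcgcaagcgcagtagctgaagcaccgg
These windows lie at chr3:90213629-90213658, chr4:86857348-86857377, chr17:27635225-27635254, chr7:118116128-118116157, chr14:18270967-18270996 and, for the paralogs, chr12:66284382-66284411 and chr17:46782637-46782666 on the minus strand, and at chr7:4792955-4792984, chr11:114668570-114668599, chr7:141447641-141447670, chr16:10170218-10170247 and chr3:28805498-28805527 on the plus strand. In the first 8 the annotated start is a C followed by at least 4 further pyrimidines, and none of the 4 paralogs has that form at its annotated start, although a run lies within 10 bases in Rpl39l, Rpl22l1 and Rpl10l.

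Of the 85 members, 61 had an entry in the RefSeq table of promoters (250 bases before and 50 after the annotated start), with 72 starts in all. A C at the annotated start with at least 4 further bases of C or T was found in 13 of the 72, or 18.1%, against 2.51% of all 32851 entries. CTTTCC, searched on the strand that reads as the mRNA does, was found within 50 bases of 22 of the 72 starts (30.6%, against 4.69%). CCGGAAG, the core that ETS factors bind, stood on either strand of 27 promoters (37.5%, against 8.86%), and AAGATGGC, the core of the YY1 site, on either strand of 8 (11.1%, against 2.75%). TATAAA between 20 and 40 bases before the start was found in 1 (1.39%, against 1.99%). These matches are descriptions of letters, and annotated starts often lie some bases away from the first base of the mRNA. The 13 members with the tract and the 48 others with an entry are set side by side: in the comparison of J1 L-EPSCs with ESCs the median log2 fold change was 0.44 in the former and 0.37 in the latter, and under Dox in the Sox2-cKO line -0.36 and -0.38.

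Ribosomal protein transcripts took up between 6.01% and 8.72% of all reads on genes, and the share moved with the cell state. In J1 cells it was 6.01% and 6.02% in the 2 ESC libraries, 7.04% and 7.03% in D-EPSCs and 7.86% and 7.84% in L-EPSCs, so that the 3 states did not overlap. The Oct4-cKO line had 6.65% and 6.56% in ESCs, 8.72% and 8.64% in untreated L-EPSCs and 7.98% and 7.91% with Dox. For the Sox2-cKO line the values were 6.45% and 6.40%, 8.38% and 8.43% and 6.62% and 6.52%, so its Dox-treated L-EPSCs lay back near its ESCs. In the Nanog-cKO line they were 6.86% and 6.91%, 8.60% and 8.41% and 8.68% and 8.51%, and the Dox-treated and untreated L-EPSCs overlapped. Each share has an exact (Clopper-Pearson) 95% interval at most 0.0332 percentage points wide, which covers counting error only, and with 2 libraries against 2 an exact two-sided permutation test cannot go below p = 0.33. Bulk libraries cannot tell more ribosomal protein RNA per cell from more cells that hold much of it.

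**Figure D1:**
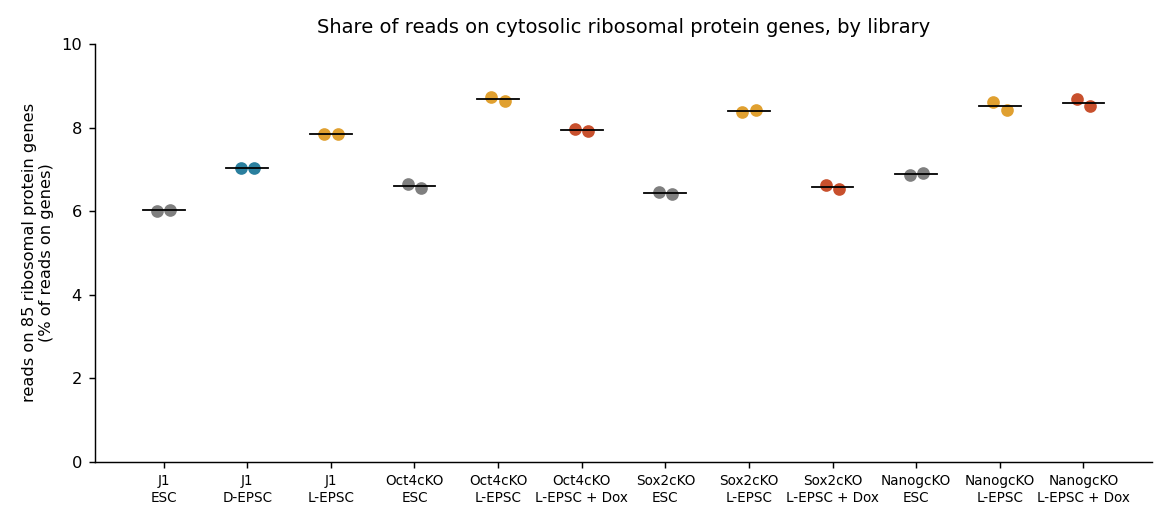
Reads on the 85 ribosomal protein genes as a percentage of all reads on genes (y axis) in each library, by group (x axis), with a point for each of the 2 replicates and a line at their mean. Shares lie near 6% to 7% in the 4 ESC groups, between 7.84% and 8.72% in the 4 untreated L-EPSC groups, and at 6.52% and 6.62% in Dox-treated Sox2-cKO L-EPSCs.

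Levels between genes were compared per kilobase of transcript for the 84 members whose transcript could be measured in the annotation of NCBIM37. Rplp1, a protein of the acidic stalk of the 60S subunit, was highest in both tables, with mean normalized counts per kilobase of 37777 for J1 cells and 38024 for the tet-off lines. Rps12 (33364 and 33664) and Rplp2 (29225 and 31093), the partner of Rplp1 in the stalk, followed in the same order in both. Paralogs and copies stood low in the order: Rps27l at 3142 and 2734, Rpl22l1 at 2502 and 1707, Rpl39l at 1648 and 883, and Rpl6l lowest at 161 and 159.9. Rpl29 (2114 and 2900.2) and Rps20 (3585 and 3501) had levels close to that of Rps27l. For what follows, 9 members were set apart by name or annotation, after their values had been seen: 6 paralogs (Rpl7l1, Rpl10l, Rpl22l1, Rpl39l, Rps4l and Rps27l) and Rps3a2, Rps3a3 and Rpl6l, which the tables call pseudogenes, as they do Rps4l. The other 76 are called core members.

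In J1 cells, the conversion to D-EPSCs raised most ribosomal protein genes by a small amount. Of the 85 members, 66 were called higher in D-EPSCs than in ESCs and 5 lower, at an adjusted p under 0.05 in limma on log2(normalized count + 1), with Benjamini-Hochberg adjustment over all genes tested. Among all genes with a mean of 100 or more, 26.8% were called higher and 31.2% lower. The median log2 fold change of the members was 0.17, or 1.13-fold, and that of all genes with a mean of 100 or more was -0.02. Clearly fewer members were called higher when any 1 library was left out, so the count of 66 depends on having both replicates. The median itself stayed between 0.17 and 0.24 over 13 alternatives. None of the increases passed 0.6 on the log2 scale, which 10.5% of those genes did, and 1 decrease did, against 11.7%. The members that rose most were small-subunit proteins. Rps27 had 3782 and 3971 normalized counts in the 2 ESC libraries and 5509 and 5919.9 in D-EPSCs, a log2 fold change of 0.56 ± 0.040 (SE) (adjusted p = 2.12e-05, limma). Rps21 went from 3914 and 4018 to 5612 and 5738 (log2 fold change 0.52 ± 0.028 (SE)) and Rps12 from 13040.0 and 13334 to 17955 and 17997 (0.45 ± 0.018 (SE)). The groups did not overlap for these genes. Nearly all 150-base stretches of the Rps27 (99.5%) and Rps12 (97.6%) transcripts have an exact second copy elsewhere in the genome, so their levels are uncertain. Of the 5 that fell, 4 were paralogs, and the fifth, Rpl4, moved by only -0.06.

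L-EPSCs of the J1 line showed the same direction with a larger median. There, 81 members were called higher than in ESCs and 3 lower, against 29.6% and 32.4% of the genes with a mean of 100 or more. The median log2 fold change was 0.37 (1.29-fold), with a median of -0.01 for those genes, and all 76 core members were among the 81. Beyond 0.6 there were 4 increases (background 9.32%) and 2 decreases (12.9%). Rps3, a protein at the mRNA entry site of the 40S subunit, rose most, from 15974 and 15559 normalized counts in ESCs to 24587 and 25435 in L-EPSCs (log2 fold change 0.67 ± 0.022 (SE), adjusted p = 4.07e-07, limma). Rps27 (0.65) and Rps12 (0.64) followed, with the same limit of shared sequence. These conversions share the ESC libraries, so their values stand side by side as they are. A direct comparison of the EPSC lines called 75 members higher and 3 lower on the L-EPSC side, against 26.9% and 23.3% of the genes with a mean of 100 or more, with a median log2 fold change of 0.21. The 75 also became clearly fewer when any 1 library was left out, while the median stayed between 0.17 and 0.22 over 13 alternatives. Beyond 0.6 there was 1 member on each side (background 5.53% higher and 9.19% lower). The 3 that were lower in L-EPSCs were Rpl39l (-0.74), Rps9 (-0.10) and the stalk protein gene Rplp2 (-0.10), and 1 was lower without replicate 2 of either EPSC group. Across the J1 groups the fibroblast sum fell as the ribosomal protein share rose, and the macrophage sum was lowest in ESCs. Single fibroblast markers went both ways in D-EPSCs against ESCs. Of the 8, 4 were called higher, such as Dcn (1.35), and 4 lower, such as Col1a1 (-1.19), where the background was 26.8% and 31.2%. In L-EPSCs against ESCs 0 were called higher and 6 lower (background 29.6% and 32.4%). The 7 primitive endoderm markers summed to 403 and 406 in ESCs, 1556 and 1568 in D-EPSCs and 953 and 986 in L-EPSCs. In that order of groups the means were 163, 662 and 528 for Dab2 and 212, 869 and 315 for Pdgfra. Those of Gata4 were 5.95, 5.96 and 55.3 and those of Sox17 1.82, 0 and 17.2. Gata6, Sox7 and Foxa2, also low, had their highest means in L-EPSCs too, so the sum does not stand for each marker. The part of these 3 lists in the J1 differences was not tested.

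The conversion of the 3 tet-off ESC lines to L-EPSCs gave a rise of like size, in libraries where the fibroblast and macrophage sums stayed at or below 453 and 758. In the Oct4-cKO line 81 members were called higher and 2 lower (background 40.1% and 34.8% of genes with a mean of 100 or more), with a median log2 fold change of 0.42. Trophoblast markers moved there too, from 1644 and 1756 in ESCs to 4319 and 4424 in L-EPSCs, while in the Sox2-cKO line they went from 5565 and 5594 to 1847 and 1869.6. Primitive endoderm markers went from 189 and 216 to 1111 and 1194 in the Oct4-cKO line, from 446 and 491 to 524 and 593 in the Sox2-cKO line and from 231 and 276 to 352 and 369 in the Nanog-cKO line. Of the 7 primitive endoderm markers, 5 were called higher and 0 lower in the Oct4-cKO line (background 40.1% and 34.8%). The counts were 2 and 4 in the Sox2-cKO line (34.5% and 28.9%) and 3 and 2 in the Nanog-cKO line (39.1% and 34%). Of the 8 trophoblast markers, 5 were called higher and 0 lower in the Oct4-cKO line (background 40.1% and 34.8%). For these the counts were 1 and 4 in the Sox2-cKO line (34.5% and 28.9%) and 3 and 2 in the Nanog-cKO line (39.1% and 34%). The part of either list in the rise was not tested. The Sox2-cKO line had 78 higher and 0 lower (background 34.5% and 28.9%), with a median of 0.44. At an unadjusted p under 0.05 and in edgeR or DESeq2 the count of lower members there was also 0. The Nanog-cKO line had 79 higher and 2 lower (background 39.1% and 34%) and a median of 0.31, and 1 was lower without ESC replicate 2. The median of all genes with a mean of 100 or more was 0.05, 0.04 and 0.04 in the same order. Counting the J1 L-EPSCs too, 72 of the 85 members were called higher in each of the 4 conversions, which use separate libraries, as were 6.23% of the genes with a mean of 100 or more in both tables. A further 9 members rose in 3 of them, and Rpl7l1 rose in none. Changes were small for single genes: beyond 0.6, 13 members rose in the Oct4-cKO line (background 20%), 9 in the Sox2-cKO line (11.2%) and 6 in the Nanog-cKO line (18.8%), and 0 fell in any of them (17.7%, 12.1% and 16.8%).

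Rpl32, a protein of the large subunit, was among the 3 largest increases in the Nanog-cKO line, where it rose from 9748 and 9729.5 to 18533 and 17468 (0.89), while in the Sox2-cKO line it rose from 9184 and 8854 to 12733 and 12874 (0.51), and the difference between those effects was -0.38 ± 0.039 (SE) (adjusted p = 2.23e-06, limma).

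**Figure D2:**
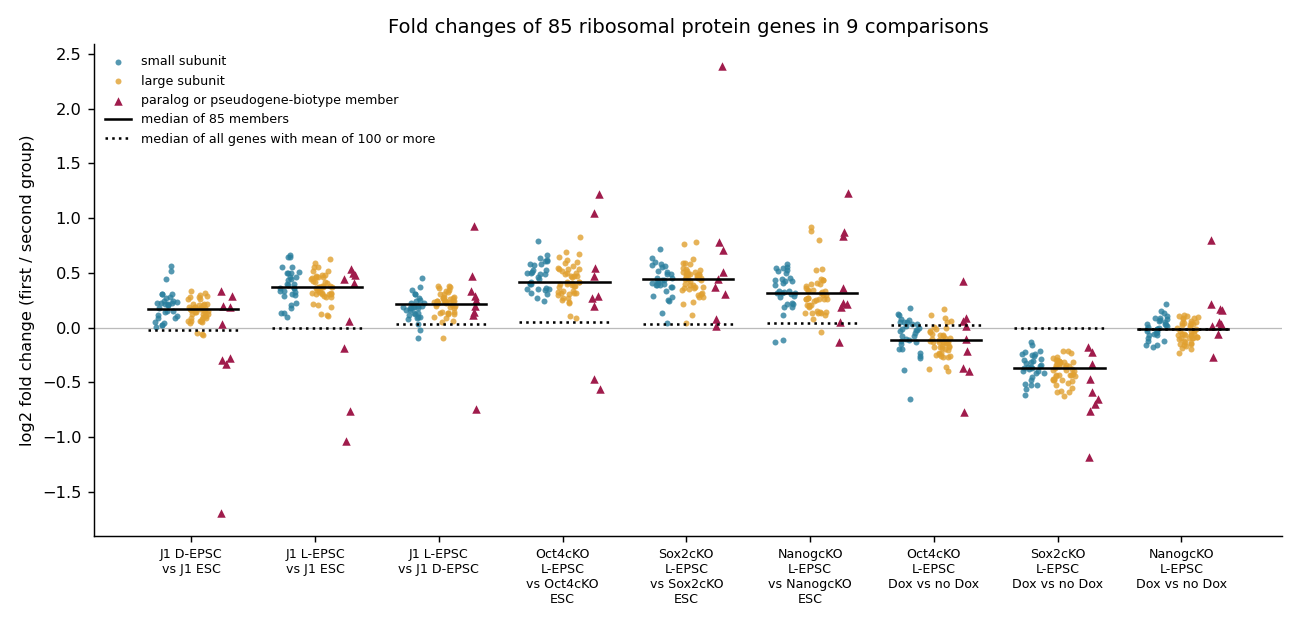
Log2 fold change (y axis) of each of the 85 members in the 9 comparisons (x axis), with small-subunit members in blue, large-subunit members in yellow and the 9 paralogs or pseudogene-biotype members as red triangles. Solid lines are the median of the 85 members and dotted lines that of all genes with a mean of 100 or more: the solid line lies above the dotted one in the 6 comparisons without Dox, by most in the Sox2-cKO conversion, and below it by most under Dox in the Sox2-cKO line.

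Dox gave 3 different pictures in the 3 lines. When Sox2 was shut off, 83 of the 85 members fell and 0 rose, where 35.1% of the genes with a mean of 100 or more fell and 33.7% rose. The median log2 fold change was -0.37, or 0.772-fold, all 50 large-subunit and 33 of 35 small-subunit members were among the 83, and the other 2, Rps27 (-0.13) and Rps3a2 (-0.23), were also below 0. At an unadjusted p under 0.05 and in edgeR or DESeq2 no member was higher either. With Oct4 shut off, 48 members fell and 8 rose (background 35.9% and 37.4%), with a median of -0.11 where the median of all genes with a mean of 100 or more was 0.02. By subunit, 34 of 50 large-subunit members fell and 2 rose, and 14 of 35 small-subunit members fell and 6 rose. The count of 8 that rose was 4 without untreated replicate 2 and 5 without either Dox library. In the Nanog-cKO line 20 fell and 14 rose (background 25.4% and 22.7%), shares below those of all genes, with a median of -0.02. Scaling to total reads turned that split to 30 higher and 10 lower and the median to 0.03, and the count of higher members was 6 without L-EPSC replicate 2 and 8 without Dox replicate 2, and that of lower members 11 without L-EPSC replicate 1 and 10 without Dox replicate 2, so no direction is read for this line. Nanog was also the factor that Dox lowered least. Beyond 0.6, Dox left 0 members higher and 2 lower in the Oct4-cKO line (background 17.4% and 19.1%), 0 and 6 in the Sox2-cKO line (15.6% and 13.8%) and 1 and 0 in the Nanog-cKO line (6.15% and 6.66%).

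Trophoblast marker sums rose with Dox. The 8 markers summed to 4319 and 4424 in untreated and 27726 and 28185 in Dox-treated Oct4-cKO L-EPSCs, to 1847 and 1869.6 and 11482 and 11511 in the Sox2-cKO line, and to 561 and 606 and 919.6 and 922 in the Nanog-cKO line. The primitive endoderm sums with Dox were 1252 and 1338, 852 and 859 and 363 and 365 in the same order of lines. Single markers of that list went both ways with Dox. Pdgfra rose and Gata4 fell in the Oct4-cKO (1.46 and -2.93) and Sox2-cKO (2.17 and -1.78) lines. All 8 trophoblast markers were above 10 normalized counts in Oct4-cKO and Sox2-cKO libraries with Dox. Of the 8, 6 were called higher and 0 lower with Dox in the Oct4-cKO line (background 37.4% and 35.9%). The counts were 6 and 1 in the Sox2-cKO line (33.7% and 35.1%) and 3 and 0 in the Nanog-cKO line (22.7% and 25.4%). These sums are of marker RNA and do not count cells. The part of these lists in the fall of ribosomal protein genes was not tested.

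Among the named core members, the Sox2-cKO fall was widely shared. Rplp0, the base of the ribosomal stalk, went from 15722 and 15749.7 normalized counts to 10509 and 10374 with Dox (log2 fold change -0.59 ± 0.022 (SE), adjusted p = 2.96e-12, limma). Rpl5 (-0.32) and Rpl11 (-0.44), which carry the 5S rRNA and can hold back Mdm2, fell from 18381 and 18359.5 to 14712 and 14672 and from 12037 and 11839 to 8768 and 8882. Rps6, the S6 kinase substrate, fell from 16921 and 16931 to 12787 and 13244 (-0.38 ± 0.023 (SE)), and Rpl38, known for its part in translating Hox mRNAs, from 3405 and 3484 to 2610.1 and 2506 (-0.43 ± 0.036 (SE)). The smallest of the falls that passed the test was that of Rps19, which is mutated in Diamond-Blackfan anaemia, from 8506 and 8415 to 7755 and 7449.7 (-0.15 ± 0.041 (SE), adjusted p = 0.00566, limma). For Rpsa, a small-subunit protein also known as the laminin receptor, the lines went different ways: 36969 and 37002 against 31189 and 31279.5 in the Sox2-cKO line (-0.24), 39107 and 38678 against 40197 and 40253 in the Oct4-cKO line (0.05). The difference of 0.29 ± 0.024 (SE) between those effects passed the test (adjusted p = 1.16e-07, limma).

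In the Oct4-cKO line, where the median moved little, single members moved more. Rps4x, a 40S protein coded on the X chromosome, fell from 17015 and 16890.5 to 10848 and 10718 (-0.65 ± 0.030 (SE), adjusted p = 1.78e-11, limma), beside -0.62 in the Sox2-cKO line. Rpl3, at the peptidyl transferase centre, fell from 20300.3 and 19907 to 15307 and 15291 (-0.39 ± 0.029 (SE)), beside -0.42 in the Sox2-cKO line. For neither gene did the lines differ by the test: the difference between the lines was -0.03 ± 0.042 (SE) for Rps4x and 0.03 ± 0.040 (SE) for Rpl3, with adjusted p = 0.658 and 0.73 in limma. Rps12, by contrast, rose from 20802 and 20666 to 22793 and 22439 in the Oct4-cKO line (0.13) and fell from 18855 and 19173 to 15293 and 15534 in the Sox2-cKO line (-0.30), a difference of 0.43 ± 0.032 (SE) (adjusted p = 5.14e-08, limma).

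The differences of effects between lines were tested as interaction terms of the same limma fit, and the counts are of members that passed the test. The Dox effect was called higher in the Oct4-cKO than in the Sox2-cKO line for 75 members and lower for 0, against 25.3% and 24.8% of the genes with a mean of 100 or more. It was lower in the Sox2-cKO than in the Nanog-cKO line for 80 and higher for 0, against 28% and 27.7%. No member lay on the other side at an unadjusted p under 0.05 or in edgeR or DESeq2 in either case. Between the Oct4-cKO and Nanog-cKO lines 38 members were lower and 3 higher in the former, against 29.9% and 31.5%, and the 3 became 7 without Nanog-cKO L-EPSC replicate 2 and 5 without Nanog-cKO Dox replicate 1. These contrasts share the libraries of each line. The conversion effect differed less: 12 members were higher and 12 lower in the Oct4-cKO than in the Sox2-cKO line, below the background of 20.7% and 20.6%, and the higher count was 6 without Oct4-cKO ESC replicate 2 or Sox2-cKO ESC replicate 1 and 7 without Oct4-cKO L-EPSC replicate 1. It was smaller in the Nanog-cKO line, with 44 members higher and 6 lower in the Oct4-cKO line (background 24.8% and 24.6%) and 41 higher and 8 lower in the Sox2-cKO line (background 24.2% and 23.7%).

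**Figure D3:**
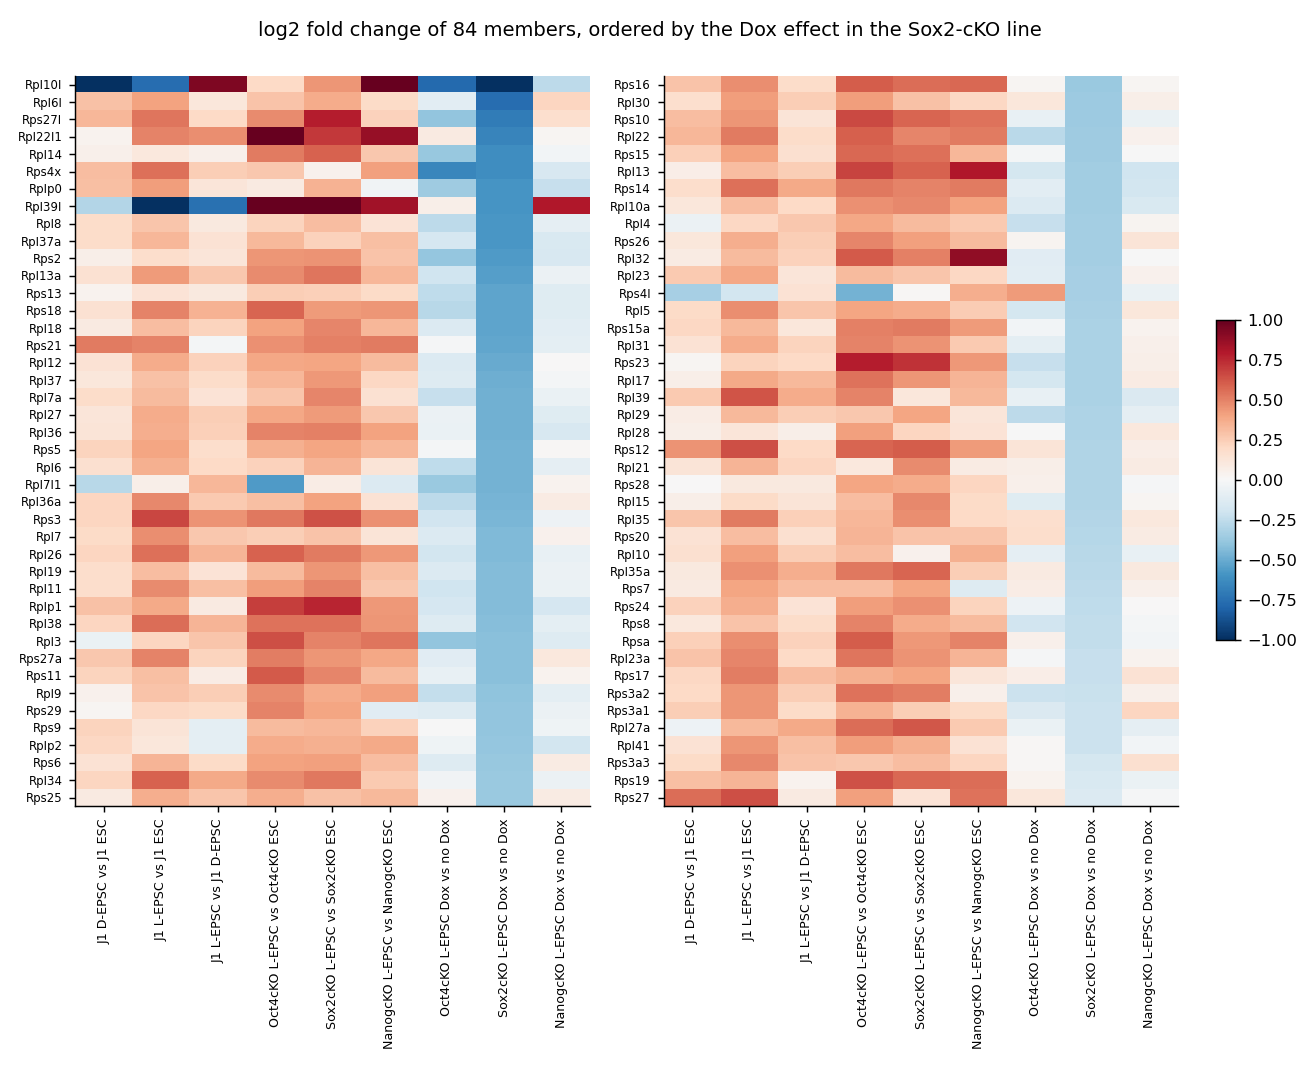
Log2 fold change of 84 members (rows, ordered by the Dox effect in the Sox2-cKO line and split over 2 panels) in the 9 comparisons (columns), with red for higher and blue for lower in the first group named and colours clipped at -1 and 1. The column of Dox in the Sox2-cKO line is blue throughout, the 6 columns without Dox are mostly red, and Rpl10l, Rpl39l, Rps4l and Rpl7l1 stand out as rows of mixed colour.

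The 9 members set apart ranged more widely than the core members, in a split that was made after their values had been seen. Over the 76 core members the log2 fold changes of the J1 L-EPSC comparison ran from 0.10 to 0.67, while those of the 9 set apart ran from -1.04 to 0.54. In the conversion of the Sox2-cKO line the ranges were 0.04 to 0.78 and 0.01 to 2.39, and under Dox in that line -0.62 to -0.13 and -1.18 to -0.17. The 6 paralogs are described with their parent genes.

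Rpl39l, the paralog of Rpl39 (a protein of the exit tunnel of the 60S subunit) that is best known from male germ cells, changed most. In J1 cells it fell, from 1167 and 1194 normalized counts in ESCs to 951 and 975 in D-EPSCs and 573 and 577 in L-EPSCs (log2 fold change -1.04 ± 0.046 (SE), adjusted p = 1.71e-06, limma). In every tet-off line it rose on conversion: from 345 and 383 to 749 and 754 in the Oct4-cKO line (1.05 ± 0.093 (SE)), from 186 and 148 to 872 and 874 in the Sox2-cKO line (2.39 ± 0.093 (SE), a 5.23-fold rise) and from 140.1 and 147 to 254 and 261 in the Nanog-cKO line (0.84 ± 0.093 (SE)). The ESC groups of the 2 tables lie on opposite sides of their L-EPSCs for this gene, and the tables were scaled separately. Relative to Rpl39 in the same library, Rpl39l stood at 50.7% and 47.7% in J1 ESCs and 15.5% and 15.5% in J1 L-EPSCs, but at 5.73% and 5.24% in Sox2-cKO ESCs and 26.7% and 26.5% in their L-EPSCs. Dox then lowered it in the Sox2-cKO line, to 599.7 and 559 (-0.59 ± 0.093 (SE)), and raised it in the Nanog-cKO line, to 477 and 423 (0.80 ± 0.093 (SE)), a difference between lines of -1.39 ± 0.132 (SE) (adjusted p = 4.45e-07, limma). Rpl39 itself rose in both J1 EPSCs and fell in the Sox2-cKO line (-0.31). No 150-base stretch of the Rpl39l transcript has an exact second copy in the genome, and its gene lies on the plus strand at chr16:10170319-10175004 of NCBIM37.

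Rpl10l, an intronless copy of the X-linked Rpl10 that stands in for it in meiosis, was the largest exception in D-EPSCs. It had 2067 and 1975 normalized counts in J1 ESCs, 622 and 624 in D-EPSCs (log2 fold change -1.70 ± 0.043 (SE), adjusted p = 9.71e-08, limma) and 1189 and 1189 in L-EPSCs (-0.76 ± 0.043 (SE)). Rpl10 went up in the same libraries, from 9888 and 9717 to 10981 and 10917 and 12972 and 13019.8. On conversion of the tet-off lines Rpl10l rose in the Nanog-cKO line from 589.7 and 606 to 1458 and 1354 (1.23 ± 0.085 (SE)) and in the Sox2-cKO line from 841 and 848 to 1186 and 1110.4 (0.44 ± 0.085 (SE)), while in the Oct4-cKO line the libraries had 809 and 651 and then 815 and 854, which did not pass the test (adjusted p = 0.0672, limma). Dox lowered it in all 3 lines, by most in the Sox2-cKO line, from 1186 and 1110.4 to 542 and 470.2 (-1.18 ± 0.085 (SE)), then in the Oct4-cKO line (-0.78 ± 0.085 (SE)) and least in the Nanog-cKO line (-0.26 ± 0.085 (SE)). Its single exon lies on the minus strand at chr12:67384368-67385388 of NCBIM37, and 4.01% of its 150-base windows have a second copy.

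Rpl22l1, the paralog of Rpl22 and a regulator of splicing, rose in all 4 L-EPSC conversions. It rose from 349 and 318 to 744 and 810.3 in the Oct4-cKO conversion (log2 fold change 1.22 ± 0.069 (SE), adjusted p = 3.06e-10, limma), by 0.71 in the Sox2-cKO line and by 0.87 in the Nanog-cKO line. In J1 cells it had 1099 and 1038 in ESCs, 1068 and 1115 in D-EPSCs and 1553 and 1466 in L-EPSCs, so that the rise was seen in L-EPSCs (0.50) and the D-EPSC libraries overlapped with ESCs. Dox lowered it in the Sox2-cKO line from 1109 and 1068 to 724 and 658 (-0.66 ± 0.069 (SE)). The Oct4-cKO libraries had 744 and 810.3 and then 848 and 804, a difference between lines of 0.74 ± 0.098 (SE) (adjusted p = 2.26e-05, limma). Rpl22 stood at 5902 and 5775 and 8875 and 8803 in the Oct4-cKO conversion (0.60), so the paralog went from 5.92% and 5.51% to 8.38% and 9.2% of its parent.

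Rps27l, a paralog of Rps27 that p53 can induce, rose in each of the 6 comparisons without Dox, by most in the Sox2-cKO conversion, from 1105 and 1071 to 1858 and 1891 normalized counts (log2 fold change 0.78 ± 0.043 (SE), adjusted p = 4.08e-10, limma). With Dox it fell to 1188 and 1117 in that line (-0.70 ± 0.043 (SE)) and from 2108 and 2044 to 1632 and 1532 in the Oct4-cKO line (-0.39 ± 0.043 (SE)). It rose in the Nanog-cKO line (0.17 ± 0.043 (SE), adjusted p = 0.00687, limma). Its parent Rps27 did not pass the test under Dox in any line, with 5432 and 5178 and then 4993 and 4680.3 in the Sox2-cKO line. Nearly every 150-base window of Rps27 (99.5%) has an exact second copy elsewhere, and none of Rps27l has.

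Rpl7l1, which acts in the assembly of the 60S subunit, and Rps4l, a copy of Rps4x, both fell in the Oct4-cKO conversion. Rpl7l1 fell from 3191 and 3161 to 2139 and 2159 in the Oct4-cKO line (log2 fold change -0.56 ± 0.039 (SE), adjusted p = 3.38e-09, limma) and from 3699.7 and 3600.4 to 2991 and 3045 in J1 D-EPSCs (-0.27 ± 0.029 (SE)). It fell again with Dox in the Oct4-cKO (-0.37) and Sox2-cKO (-0.47) lines. Rps4l fell from 5250.1 and 5036 to 3565 and 3864 in the Oct4-cKO conversion (-0.47 ± 0.038 (SE)) and rose from 6027 and 6067 to 7818 and 7762 in the Nanog-cKO one (0.37 ± 0.038 (SE)). With Dox it rose to 5130.3 and 4844 in the Oct4-cKO line (0.43 ± 0.038 (SE)), where Rps4x fell, and fell from 4701 and 4661 to 3739 and 3683 in the Sox2-cKO line (-0.33 ± 0.038 (SE)). As a percentage of Rps4x it went from 20.9% and 22.9% to 47.3% and 45.2% under Dox in the Oct4-cKO line. The tables call Rps4l a pseudogene, the NCBIM37 annotation calls the same gene protein-coding (as it does Rps3a2, Rps3a3 and Rpl6l), and no 150-base window of it has a second copy. Rpl3l, the muscle paralog of Rpl3 that missed the mean of 100, had 42.6 and 40.4 normalized counts in untreated Oct4-cKO L-EPSCs and 2.30 and 2.22 with Dox.

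**Figure D4:**
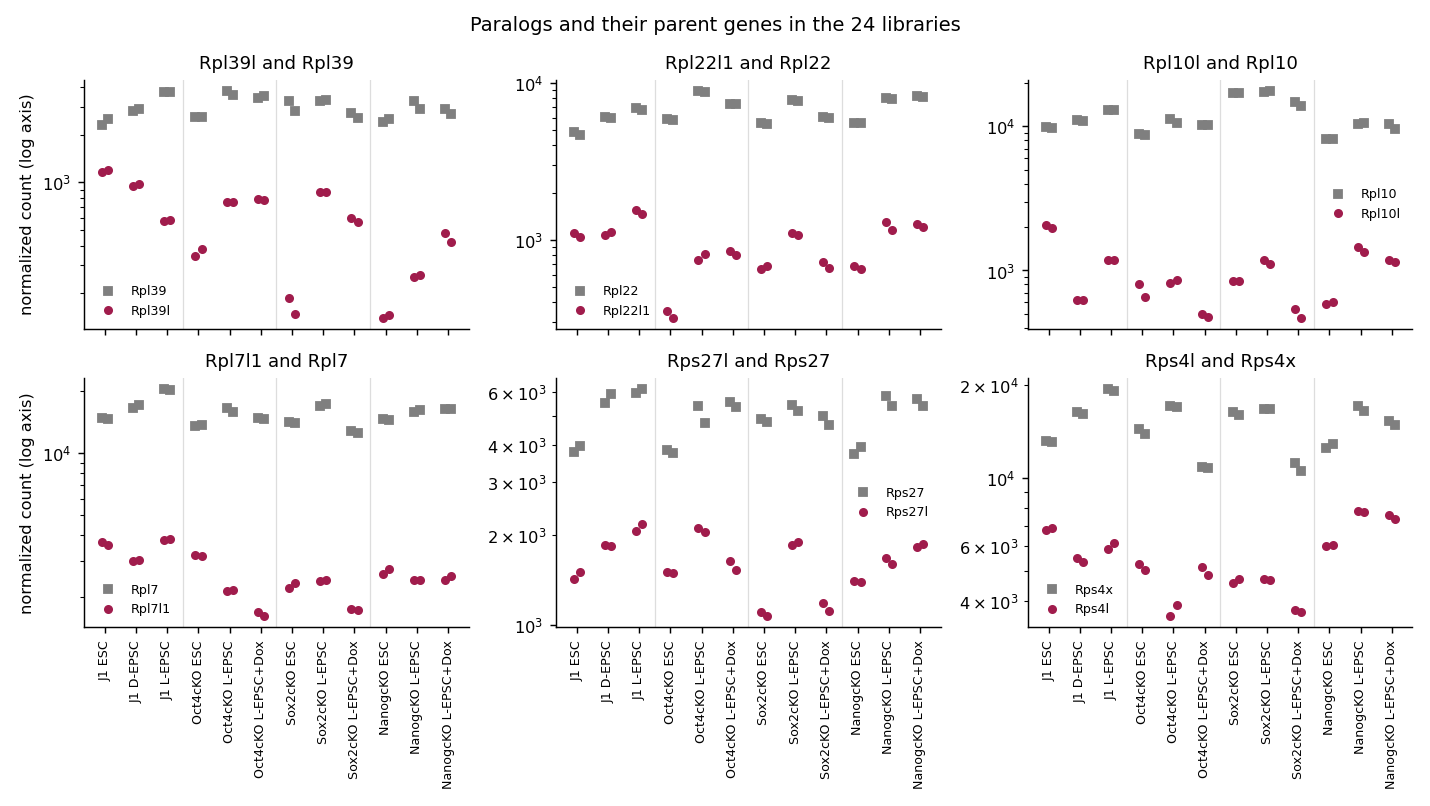
Normalized counts (log axis) of 6 paralogs (red circles) and their parent genes (grey squares) in each of the 24 libraries, by group, with a point for each replicate and thin vertical lines that part the cell lines. Rpl39l falls from ESCs to L-EPSCs in J1 cells and rises in the 3 tet-off lines, and Rpl10l is lowest with Dox in the Oct4-cKO and Sox2-cKO lines.

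A few core members stood outside the common rise in single lines. Rplp0 was called higher in 3 conversions, but in the Nanog-cKO line it had 29966 and 30571 normalized counts in ESCs and 29590.5 and 29451 in L-EPSCs (-0.04, adjusted p = 0.226, limma), where the ESCs of the other tet-off lines had between 12247 and 14516. Rps7, another Mdm2-binding protein, fell in that line from 11285 and 11704 to 10565 and 10449 (-0.13 ± 0.023 (SE)) and rose in the other two (0.31 and 0.39). The difference from the Oct4-cKO line was 0.44 ± 0.033 (SE) (adjusted p = 6.08e-08, limma). Rps29 went from 5725 and 5548 to 8045 and 7836 in the Oct4-cKO line (0.49) and from 6963 and 6649 to 6595 and 6000.1 in the Nanog-cKO line (-0.11), where the libraries lie close together.

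Reads from these genes are hard to assign, because processed pseudogenes hold near-identical sequence. For the 84 members with a transcript in the NCBIM37 annotation, the median share of 150-base windows with an exact second copy elsewhere in the genome was 31.7%, at the read length of the study. It was 0 for 13 members and 50% or more for 30, with Rps27 (99.5%), Rps12 (97.6%), Rps6 (94%) and Rpl10 (93.4%) at the top, so the levels of those genes are uncertain. Medians by this share are set side by side. In J1 L-EPSCs the median log2 fold change was 0.40 for the 13 members with no shared window, 0.37 for the 41 with less than 50% and 0.36 for the 30 with more, and under Dox in the Sox2-cKO line -0.47, -0.36 and -0.37. Over these 84 members, Spearman's rho of fold change with the shared percentage lay between -0.18 and 0.25 in the 9 comparisons, as a description across genes of the same libraries. Genes named as pseudogenes of ribosomal proteins ("-ps" names, 147 of them in the J1 table) held between 0.77 and 1.02 reads for every 100 on the members, and their summed share moved with the members, by 1.24 times in J1 L-EPSCs and by 0.798 times under Dox in the Sox2-cKO line. Copies under other names are not in that sum, so it is not the whole of the reads on pseudogenes. Rps4l and Rps3a3, kept members with a pseudogene biotype, had means of 6085 and 4124 in J1 cells. How HTSeq treated reads that map to several loci is not given in the sources used here.

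**Figure D5:**
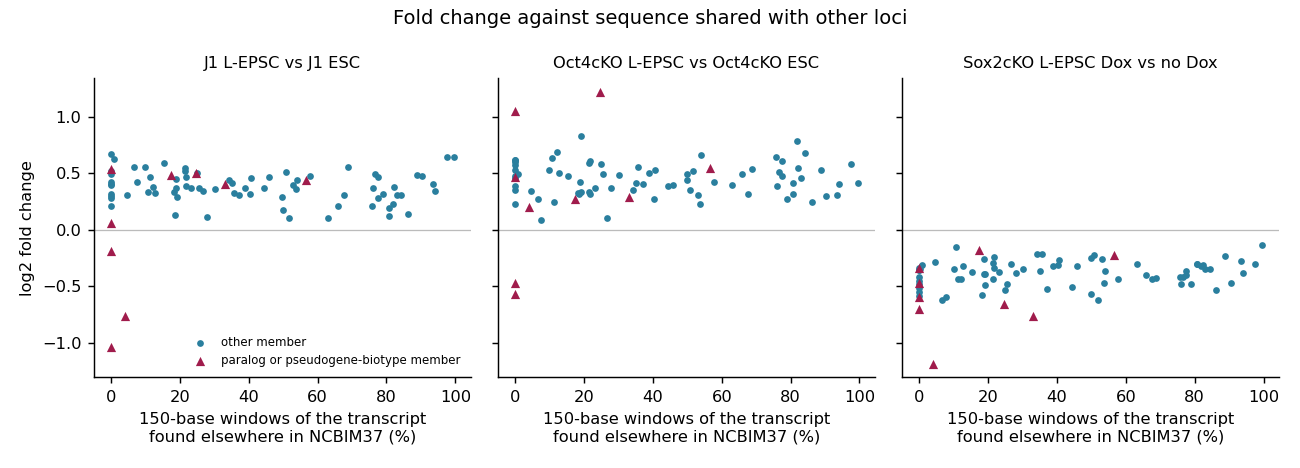
Log2 fold change (y axis) of each of the 84 members with a measured transcript against the percentage of its 150-base windows that occur exactly elsewhere in NCBIM37 (x axis), in 3 comparisons, with the paralogs and pseudogene-biotype members as red triangles. Members with no shared window and members with over 50% overlap in height, with medians of 0.40 and 0.36 in J1 L-EPSCs.

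Genes that work with the ribosome were read from lists. Of 19 other TOP genes and ribosome-fused genes, 16 rose and 0 fell in J1 L-EPSCs (background 29.6% and 32.4% of genes with a mean of 100 or more). In the Oct4-cKO, Sox2-cKO and Nanog-cKO conversions 15, 17 and 15 rose (background 40.1%, 34.5% and 39.1%) and 0, 1 and 1 fell (background 34.8%, 28.9% and 34%). The median log2 fold changes were 0.19, 0.19, 0.24 and 0.22 in that order, and those that fell were Eif4b (-0.21) and Eef1g (-0.06). Eef1a1, the elongation factor that brings tRNA to the ribosome, rose by 0.21 in J1 L-EPSCs and by 0.45 in the Oct4-cKO line (adjusted p = 1.66e-13, limma). Under Dox in the Sox2-cKO line 15 fell and 1 rose (background 35.1% and 33.7%, median -0.23), and Npm1, a nucleolar chaperone, fell (-0.77 ± 0.027 (SE), adjusted p = 1.43e-12, limma). Pabpc1, the poly(A)-binding protein, fell with Dox in both the Oct4-cKO (-0.64) and Sox2-cKO (-0.48) lines.

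Ribosome biogenesis genes did not go with the ribosomal proteins in every line. In J1 L-EPSCs 30 of 50 rose and 4 fell (background 29.6% and 32.4%, median 0.22), but on conversion of the tet-off lines 41 of 50 fell in the Oct4-cKO line, 29 in the Sox2-cKO line and 34 in the Nanog-cKO line (background 34.8%, 28.9% and 34%), with 1, 7 and 9 that rose (background 40.1%, 34.5% and 39.1%) and medians of -0.63, -0.21 and -0.24. Ncl (nucleolin) went from 34533 ± 565 to 19970.5 ± 199 normalized counts (mean ± SD, n = 2) in the Oct4-cKO line (-0.79 ± 0.030 (SE), adjusted p = 2.65e-12, limma). Ubtf, which activates rRNA transcription, fell in all 3 (-1.48, -0.83 and -0.95), and Nop56, part of the box C/D snoRNP, likewise (-0.98, -0.42 and -0.78). Their ribosomal protein genes rose in the same libraries. Under Dox 39 of 50 fell in the Sox2-cKO line (background 35.1%). In the Oct4-cKO line 16 fell and 22 rose, shares near the background of 35.9% and 37.4%.

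Mitochondrial ribosomal protein genes, 77 of them, were mixed. More rose than fell in J1 L-EPSCs (38 higher, 5 lower, background 29.6% and 32.4%, median 0.24) and the Sox2-cKO conversion (32 and 2, background 34.5% and 28.9%, median 0.16). In the Oct4-cKO conversion 19 rose and 20 fell, shares below the background of 40.1% and 34.8%, and in the Nanog-cKO conversion 22 rose and 27 fell (background 39.1% and 34%). Under Dox 38 fell and 11 rose in the Sox2-cKO line (background 35.1% and 33.7%), while 37 rose and 14 fell in the Oct4-cKO line (background 37.4% and 35.9%). Of 13 regulators of TOP mRNAs, between 2 and 6 moved in each direction in every comparison, where the background ran from 22.7% to 40.1%, so no pattern of the list is read from them. Larp1, which binds the TOP tract, fell on conversion of the Oct4-cKO (-0.55 ± 0.030 (SE)) and Sox2-cKO (-0.53 ± 0.030 (SE)) lines. It fell less in the Nanog-cKO conversion (-0.09) and in J1 D-EPSCs against ESCs (-0.11). With Dox it rose in the Nanog-cKO line (0.35), and it was not called in the other comparisons. Eif4ebp1, the mTOR target that represses cap-dependent translation, fell in J1 L-EPSCs (-0.68), rose in the 3 tet-off conversions (0.49, 0.93 and 0.60) and fell with Dox in the Oct4-cKO (-0.84) and Sox2-cKO (-0.93) lines, all with adjusted p of at most 6.04e-07 in limma.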

How the data were processed

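Poly(A) RNA libraries of 24 samples (12 groups of 2) were read from 2 tables, one of J1 cells and one of tet-off lines. Per the labels and the study's methods, the authors trimmed reads with Trim Galore 0.6.4, aligned them with STAR 2.7.9a to NCBIM37, counted them per gene with HTSeq 0.11.2 and divided the counts by DESeq2 size factors. The deposited values are therefore a signal, normalized counts, scaled within each table. The strand setting of the counting is not given in the sources used here, so overlapping antisense genes cannot be told apart. Whole reads were recovered from 100% of the values of all 24 columns (tolerance 0.05 reads) and used for depth, for shares of reads and for edgeR 4.0.16 and DESeq2 1.42.0 as alternatives.

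The main test was limma 3.58.1 (R 4.3.3) with a mean-variance trend on log2(normalized count + 1), over genes with at least 2 reads in total, with all groups of a table in 1 fit and Benjamini-Hochberg adjustment over all genes tested. A fold change is thus on the log2(normalized count + 1) scale, and a call needs an adjusted p under 0.05. On simulated counts of the J1 L-EPSC comparison over 20928 genes, limma called 37% of changes of 0.3 and 91% of changes of 0.6 on the log2 scale. In the Sox2-cKO Dox comparison over 23402 genes the shares were 55% and 96%. Every simulated gene had the common dispersion of its table, and the changed genes were drawn from all with a mean of 100 or more reads. Most members are far more abundant and had small SEs, so these shares do not apply to them. In J1 D-EPSCs 66 of 85 members were called higher at a median of 0.17. Intervals of shares cover counting error only.

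Members, gene lists and tests were chosen with earlier results of these data known. Named members were chosen by role (stalk, 5S particle, Rpsa, Rps6 and other well-known proteins, paralogs with parents) and as the 3 largest and 3 smallest called log2 fold changes of a comparison, of which 1 member is not reported here, and Rps12 under Dox was chosen after its values were seen. Gene positions and transcript lengths came from the GENCODE vM1 annotation of NCBIM37 by gene ID (86 of 87 matched; Rpl41 did not), and start sites from RefSeq GRCm38.p6 by symbol. Alternatives were other scalings, filters, pseudocounts, the 2 groups alone, a replicate block, leaving out each library, and, added after the data were seen, the count tools for differences between lines and member sets without pseudogene biotypes or shared sequence.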

Additional observations from a re-analysis of the deposited data

Results flagged for a closer look

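Each of the following is a difference between 2 lines in the same contrast, tested as an interaction term in limma, and each count is of members that passed the test (adjusted p under 0.05). The contrasts of 1 line share its libraries. Background shares are of the genes with a mean of 100 or more. For Dox, Oct4-cKO minus Sox2-cKO was called positive for 75 members and negative for 0 (background 25.3% and 24.8%). The largest values were those of Rps4l (0.76), Rpl22l1 (0.74) and Rpl6l (0.66). Oct4-cKO minus Nanog-cKO was called positive for 3 and negative for 38 (background 31.5% and 29.9%), led by Rpl39l (-0.74), Rps27l (-0.56) and Rpl10l (-0.51). Sox2-cKO minus Nanog-cKO was called positive for 0 and negative for 80 (background 27.7% and 28%), led by Rpl39l (-1.39), Rpl6l (-0.97) and Rpl10l (-0.92). Rpl6l is the lowest member, at a mean of 142 normalized counts in this table.

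For the conversion from ESCs to L-EPSCs, Oct4-cKO minus Sox2-cKO was called positive for 12 members and negative for 12. Both are below the background of 20.7% and 20.6%, so no difference of the members as a group is read. The largest values were those of Rpl39l (-1.34), Rpl7l1 (-0.64) and Rpl22l1 (0.51). Oct4-cKO minus Nanog-cKO was called positive for 44 and negative for 6 (background 24.8% and 24.6%), led by Rpl10l (-1.03), Rps4l (-0.84) and Rps29 (0.61). Sox2-cKO minus Nanog-cKO was called positive for 41 and negative for 8 (background 24.2% and 23.7%), led by Rpl39l (1.55), Rpl10l (-0.79) and Rps27l (0.55).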

How the results depend on the processing

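Directions of the medians held under all 13 alternatives in 8 of the 9 comparisons. The Nanog-cKO Dox median turned to 0.0311 with total reads and ran from -0.0435 (without L-EPSC replicate 2) to 0.0058 (without L-EPSC replicate 1) when 1 library was left out, with 0.0013 without Dox replicate 2. Asking also for a log2 fold change beyond 0.6 left 0 higher and 1 lower members in J1 D-EPSCs, 4 higher in J1 L-EPSCs, 1 and 1 between the EPSCs, 13 and 0, 9 and 0, and 6 and 0 in the Oct4-cKO, Sox2-cKO and Nanog-cKO conversions, and 0 and 2, 0 and 6, and 1 and 0 with Dox in the same lines. The 2 lower members of the Oct4-cKO conversion were 1 without pseudogene biotypes. The 2 lower members of the Nanog-cKO conversion were 1 with TMM, 4 with median centring and 0 in the 2 groups alone. The 8 higher members of Oct4-cKO Dox were 4 with median centring and 4 in the 2 groups alone. For Nanog-cKO Dox, 14 higher and 20 lower became 30 and 10 with total reads and 1 and 0 in the 2 groups alone. The 3 positive Oct4-cKO minus Nanog-cKO Dox differences were 7 in edgeR, 5 in DESeq2, 1 with total reads and 6 with a mean of at least 10. Without the 10 most abundant genes the ratios of shares were 1.17, 1.31 and 1.12 in the J1 comparisons, 1.33, 1.27 and 1.20 in the conversions, and 0.923 and 0.821 for Dox in the Oct4-cKO and Sox2-cKO lines. The genes taken out held 1 member in each untreated L-EPSC library of the Sox2-cKO and Nanog-cKO lines and 0 in their ESC and the Sox2-cKO Dox libraries, so the 1.27, 1.20 and 0.821 lose member reads on the L-EPSC side alone. Leaving out 1 library gave 1 to 2 lower members between the J1 EPSCs (1 without D-EPSC or L-EPSC replicate 2), 1 to 3 in the Nanog-cKO conversion (1 without ESC replicate 2), 4 to 7 higher in Oct4-cKO Dox (4 without L-EPSC replicate 2, 5 without either Dox library), 6 to 16 higher and 10 to 23 lower in Nanog-cKO Dox (6 higher without L-EPSC replicate 2, 8 without Dox replicate 2, 11 lower without L-EPSC replicate 1, 10 without Dox replicate 2), 6 to 12 positive Oct4-cKO minus Sox2-cKO conversion differences (6 without Oct4-cKO ESC replicate 2 or Sox2-cKO ESC replicate 1, 7 without Oct4-cKO L-EPSC replicate 1) and 3 to 7 positive Oct4-cKO minus Nanog-cKO Dox differences (7 without Nanog-cKO L-EPSC replicate 2, 5 without Nanog-cKO Dox replicate 1). A lone sample was then assumed to vary like the other groups. Of 3161 alternatives of single named values, 3038 kept direction and call, 123 lost the call and 0 turned. Same-numbered libraries did not deviate together (correlations -0.0204 to 0.0264), so the numbers pair nothing, and with the replicate block 83 became 84 lower members in Sox2-cKO Dox and no count moved by over 1.5 times. The cause of these shifts was not tested.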

Other observations

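Rpl10, Rps4x, Rpl39 and Rpl36a lie on the X chromosome, and 3 of these were among the 7 members not called higher in the Sox2-cKO conversion. Rpl10 had 16916 and 16892 normalized counts in Sox2-cKO ESCs and 17192 and 17558 in L-EPSCs (0.04 ± 0.035 (SE), adjusted p = 0.44, limma). In Oct4-cKO ESCs it had 8900.4 and 8696, and in Nanog-cKO ESCs 8171 and 8216. Rps4x went from 16365 and 15997 to 16647 and 16730.4 in the Sox2-cKO line (0.04) and rose in the Oct4-cKO line from 14353 and 13805 to 17015 and 16890.5 (0.27). The median log2 fold change of all 345 X-linked genes with a mean of 100 or more was -0.24 in the Sox2-cKO conversion, with 63 higher and 180 lower, where the median of 9661 autosomal genes was 0.04. In the Oct4-cKO conversion the medians were 0.13 and 0.05, and in the Nanog-cKO conversion -0.09 and 0.05. X-linked genes were examined after the values of these members had been seen.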
